A study of Homo sapiens with 10 samples.

Results

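The genes described here were 4 cadherins (CDH1, CDH3, CDH11 and CDH17), 2 alpha-catenins (CTNNA1 and CTNNA2) and 2 members of the p120-catenin family (CTNND1 and CTNND2). They were chosen by gene symbol, and all 8 were found among the 60554 genes of the tables. Of these 8, 6 were among the 11640 genes tested, and CTNNA2 and CTNND2 fell below the limit on low values. The libraries were 10 RNA-seq libraries of Caco-2, a human colon carcinoma line that forms enterocyte-like monolayers. All cells carried dCas9-KRAB, a nuclease-dead Cas9 fused to a repressor domain, selected with puromycin as a single clone, and all had received a second lentivirus selected with hygromycin. In gCtl (n = 5) that plasmid held no guide, and in g1 (n = 3) and g2 (n = 2) it carried 1 of 2 guides against the long non-coding RNA LHFPL3-AS2. No source says that the libraries of a group came from separate cultures, so p-values measure the spread between these libraries, which may be technical. The labels give no batch.

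Cadherins are transmembrane proteins that bind their own kind on the neighbouring cell and hold epithelial sheets together at the adherens junction. Their cytoplasmic tails bind p120-catenin, which keeps the cadherin at the surface, and beta-catenin, to which alpha-catenin adds the link to actin. CDH1 (E-cadherin) is the main cadherin of gut epithelium, CDH17 (LI-cadherin) is an intestinal cadherin with a short tail that does not use these catenins, CDH3 is P-cadherin, and CDH11 is a cadherin best known from mesenchymal and bone-forming cells. CTNNA2 and CTNND2 are the forms of alpha-catenin and p120-type catenin best known from neurons.

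In GRCh38, CDH3 (chr16:68636189-68722616) and CDH1 (chr16:68737225-68835548) are neighbours on the plus strand with 14609 bases between them. CDH11 lies 3510077 bases before CDH3, on the minus strand of the same chromosome (chr16:64943753-65126112). CDH17 is at chr8:94127171-94217303 (minus strand), CTNNA1 at chr5:138610967-138935034 (plus), CTNNA2 at chr2:79185231-80648861 (plus), CTNND1 at chr11:57753243-57819546 (plus) and CTNND2 at chr5:10971840-11904043 (minus).

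Depth was 3838803 to 8730468 estimated counts per library. In these libraries the targeted RNA, at low counts, was not lower with a guide: LHFPL3-AS2 stood at 1.73, 0.840, 3.73, 1.73 and 3.12 reads per 1000000 of the library total (RPM) in gCtl, at 3.07, 3.95 and 2.03 in g1 and at 2.16 and 6.01 in g2. The mean of log2(RPM + 1) was 0.47 higher in g1 and g2 than in gCtl (exact two-sided permutation test, p = 0.1905), so the groups are called here the libraries labelled g1 and g2. The summed level of 12 enterocyte and Caco-2 markers was 1877 to 2547 RPM in gCtl and 1878 to 2265 RPM in the libraries labelled g1 and g2, and EPCAM, the epithelial adhesion molecule, had means of 724 and 827 counts per 1000000 (CPM, scaled by TMM, edgeR's correction for composition). Of the markers of mature enterocytes, ALPI held 12 counts over gCtl and 8 over the others, and SI held 2 and 56, with every library labelled g1 or g2 above gCtl. Such a lack of overlap was found in 15.4% of the genes tested. On the same list APOA1 had means of 435 and 414 CPM, FABP1 of 16.0 and 15.8, and KRT20 of 2.72 and 5.99.

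The reads come from the 3′ ends of polyadenylated RNA, and the authors assigned them to transcripts, so the end on which a gene's counts fall matters below. The last 30 bases of 5 transcripts to which CDH1, CDH3 and CTNNA1 counts were assigned are shown, from the GENCODE transcripts of the same build, 5′ to 3′ and written as DNA. Capitals mark the polyadenylation hexamer AATAAA or its variant ATTAAA, searched on the transcript's strand.
CDH1-001 (4889 bases, chr16:68835519-68835548): ATTAAAcaattttgttaaaccattgtcaaa
CDH1-202 (2068 bases, chr16:68834252-68834281): ccagctccccaactccctgccattttttaa
CDH3-001 (4929 bases, chr16:68700266-68700295): tgttgaAATAAAcatttccttccatgagga
CTNNA1-001 (3756 bases, chr5:138935005-138935034): cccAATAAAgtccactatgaaaccacgaca
CTNNA1-020 (416 bases, chr5:138887703-138887732): atcacattatttaatcagttaaaatttgta
A hexamer was found at the ends of CDH1-001, CDH3-001 and CTNNA1-001 and at neither of the other two ends. Of 83129 protein-coding transcripts of the annotation, 38.4% hold one of these hexamers in their last 30 bases. CDH1-202 is annotated as protein-coding and ends 1267 bases before CDH1-001, whereas CTNNA1-020 is a retained-intron transcript whose end lies 47302 bases from that of CTNNA1-001.

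The question put to these genes was how their mRNA differed between the libraries carrying a guide and those with the empty plasmid. In the libraries labelled g1 and g2 pooled, 2 of the 6 tested genes fell (CDH3 and CDH11), and none rose. CDH11 had passed the limit on low values through gCtl alone, so a call of it could hardly be other than lower. A gene counted as called when edgeR's quasi-likelihood test gave a p not above 0.05 after Benjamini-Hochberg adjustment over the 11640 genes and the level was 1.5 times or more higher or lower. Of all those genes 19.2% were called, 11.0% lower and 8.14% higher. The median log2 fold change of the 6 genes was -0.15, beside 0.02 for all genes tested.

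CDH3, P-cadherin, stood at 83.2, 83.5, 86.0, 92.7 and 71.9 TMM-scaled CPM in gCtl, at 30.2, 36.7 and 22.7 in g1 and at 24.1 and 13.7 in g2. The 5 libraries labelled g1 and g2 were all below the lowest gCtl library. Groups without overlap occurred in this comparison in 15.4% of the genes tested. Means were 83.5 ± 7.52 CPM (SD, n = 5) in gCtl, 29.9 ± 6.99 (n = 3) in g1 and 18.9 ± 7.41 (n = 2) in g2. CDH3 fell by 1.72 on the log2 scale (SE 0.20, edgeR adjusted p = 9.18e-05), that is 3.29-fold. Against gCtl alone g1 was lower by a log2 difference of -1.49 (SE 0.19) and g2 by -2.15 (SE 0.24). Of the CDH3 counts 99.6% were assigned to CDH3-001, and on transcripts near its end alone the log2 difference was -1.66 (edgeR adjusted p = 0.000191). In these bulk libraries fewer cells with an RNA and less of it per cell cannot be told apart.

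CDH11 was close to the detection limit even in gCtl. It passed the limit of 3 RPM through gCtl alone, with 4.17, 5.56 and 6.50 RPM in replicates 1, 2 and 4. No library with a guide was above 0.273 RPM. A gene admitted in this way could hardly be called other than lower. CDH11 held 16, 29, 15, 26 and 14 estimated counts in the gCtl libraries, 1, 1 and 0 in g1, and 1 and 2 in g2. No library with a guide reached 3 counts, and no gCtl library fell under 14. Relative to library totals the 100 counts of gCtl against the 5 of g1 and g2 together gave a 26.9-fold lower level, with an exact 95% interval of 11.1 to 84.5 that covers counting error only. For g1 alone (2 counts) the ratio was 39.4 (10.6 to 330) and for g2 alone (3 counts) 18.5 (6.14 to 91.1), intervals that overlap widely. In edgeR the adjusted p was 0.000132 for both guides together, 0.000403 for g1 and 0.00192 for g2, with fitted changes that depend on the prior count. PDGFRA, a receptor of mesenchymal cells on the fibroblast list, also fell, from 19.5 ± 7.42 CPM to 4.15 ± 3.53 (SD, n = 5 each), by 2.27 on the log2 scale (edgeR adjusted p = 0.0027). The summed level of the 8 fibroblast markers was 17.6 to 38.7 RPM in gCtl and 8.002 to 19.6 RPM in the libraries labelled g1 and g2. Without PDGFRA the other 7 summed to 4.49 to 9.59 RPM in gCtl and 6.37 to 11.04 RPM in the others, so the lower sum rested on PDGFRA. POSTN was at 0 in every library, COL1A1 held 131 counts over gCtl and 153 over the others and was not called, and the part of such cells in the CDH11 result was not tested. The endothelial list summed to 2.16 to 3.62 RPM in gCtl and 2.03 to 9.91 RPM in the others, and the leukocyte list to 3.26 to 6.02 and 1.11 to 5.33 RPM.

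CDH1, E-cadherin, stood at 141, 105, 159, 143 and 154 CPM in gCtl, at 135, 113 and 105 in g1 and at 125 and 82.5 in g2. The groups overlapped through the second gCtl library. Means were 141 ± 21.1 CPM (SD, n = 5) in gCtl and 112 ± 20.1 (n = 5) in g1 and g2 together, a log2 difference of -0.33 with a 95% interval of -0.66 to -0.00014 that was not called (edgeR adjusted p = 0.133). For g1 alone the difference was -0.26 (adjusted p = 0.309) and for g2 alone -0.44 (adjusted p = 0.109), all from the edgeR fit with 3 groups. In g2 against gCtl the call turned to lower when library totals replaced TMM (-0.61, edgeR adjusted p = 0.0391). Without g2 replicate 1, which leaves 1 g2 library, the difference was -0.77.

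The counts of CDH1 were divided between its ends in proportions that varied widely among libraries. CDH1-202, the shorter form with no hexamer above, was assigned 0, 140, 51, 0 and 446 counts in gCtl, 433, 287 and 489 in g1, and 328 and 145 in g2. Counts on transcripts ending more than 500 bases from the end of CDH1-001 made up 0%, 25.3%, 6.76%, 1.23% and 54.0% of CDH1 in gCtl, 57.6%, 66.6% and 61.5% in g1, and 48.9% and 27.3% in g2. The fifth gCtl library lay among the libraries with a guide. The group means were 17.5% ± 22.8 (SD, n = 5) and 52.4% ± 15.4 (n = 5; exact two-sided permutation p = 0.03175, 0.0529 after Benjamini-Hochberg over 5 such shares). Counted only on transcripts ending within 500 bases of the main end, an alternative chosen after seeing the data, CDH1 stood at 147, 82.2, 154, 147 and 71.03 RPM in gCtl, at 59.7, 38.6 and 37.9 in g1 and at 58.0 and 56.3 in g2. All 5 libraries with a guide were then below all of gCtl. The share of genes without overlap was 15.4% on the main count and was not computed on this one. This count leaves out the reads that made up the share above, so it is not independent of that share. On it CDH1 was called lower, by a log2 difference of -1.10 (SE 0.23, edgeR adjusted p = 0.00621), and in g1 by -1.33 (adjusted p = 0.00392), whereas -0.81 in g2 was not called (adjusted p = 0.0599). Of the 11640 genes, 1175 were called lower in this way with both guides together and 1088 in g1.

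Over all tested genes the share of counts away from the main end also differed between the groups. It was 18.2% to 20.1% in gCtl and 21.2% to 24.8% in the libraries labelled g1 and g2, without overlap (exact two-sided permutation p = 0.007937, the smallest that 5 against 5 allows, 0.0397 after adjustment over the 5 shares). The fifth gCtl library had the highest value of its group. Its part in the shift of the single genes was not tested.

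**Figure D1:**
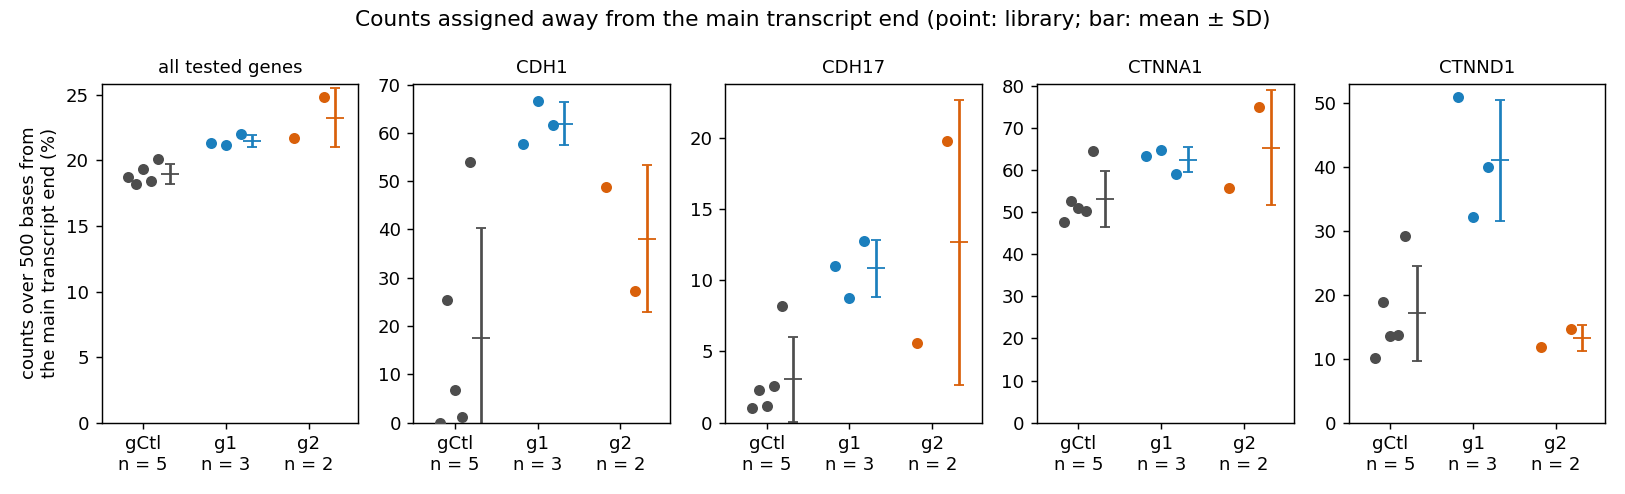
Share of estimated counts (vertical axes in percent, each from 0) on transcripts ending more than 500 bases from the main end, for all tested genes and for 4 genes, with 1 point per library and the mean ± SD beside each group. All libraries labelled g1 or g2 lie above gCtl for all tested genes, CDH1 overlaps through the fifth gCtl library at 54.0%, and CTNND1 lies at 32.2% to 51.0% in g1 and 11.9% to 14.7% in g2. Bars that would pass below 0 are drawn from 0.

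CDH17, the intestinal cadherin, stood at 109, 86.6, 105, 109 and 76.8 CPM in gCtl, at 100, 86.1 and 128 in g1 and at 191 and 131 in g2. The g2 libraries lay above all of gCtl, and the g1 libraries overlapped gCtl and reached above its highest library. Both guides together gave a log2 difference of 0.39 (SE 0.19, edgeR adjusted p = 0.153), which was not called. CDH17 rose in g2 by 0.72 on the log2 scale (SE 0.19, edgeR adjusted p = 0.0130), a 1.65-fold change, while in g1 it differed by 0.11 (SE 0.18, adjusted p = 0.709). The call in g2 was lost with library totals in place of TMM (0.56, just under 1.5-fold) and in limma on log2(RPM + 1) (0.55, adjusted p = 0.0933). Without g2 replicate 1, which leaves 1 g2 library, the difference was 0.42, under 1.5-fold. CDH17-001 held 91.6% of the counts, and the share away from its end was 1.01% to 8.18% in gCtl and 5.59% to 19.7% in the others (exact permutation p = 0.01587, adjusted 0.0397).

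CTNND1, p120-catenin, stood at 156, 109, 128, 141 and 106 CPM in gCtl, at 157, 125 and 161 in g1 and at 247 and 221 in g2. The 2 g2 libraries exceeded every other library, and g1 overlapped gCtl. CTNND1 rose in g2 by 0.87 on the log2 scale (SE 0.17, edgeR adjusted p = 0.00210), a 1.83-fold change, and the call was lost only when the test was made against a fold change of 1.5 (adjusted p = 0.145). In g1 the difference was 0.21 (SE 0.15, adjusted p = 0.369), and for both guides together it was 0.51 (SE 0.18, edgeR adjusted p = 0.0548), which passed without g1 replicate 2 (0.62, adjusted p = 0.0216). Counts away from the main end made up 10.1% to 29.3% of CTNND1 in gCtl, 32.2% to 51.0% in g1 and 11.9% to 14.7% in g2. The read-through gene TMX2-CTNND1 was at 0 in all libraries.

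In g2 against gCtl, 4 of the 6 tested genes were therefore called: 2 lower, where 13.0% of all genes were, and 2 higher, where 10.7% were. Of all genes tested 23.7% were called in either direction. Groups that did not overlap were found in 38.0% of the genes for g2 and in 26.6% for g1. In g1 against gCtl 2 of 6 were called, both lower, where 9.94% of all genes were called lower and 16.8% in either direction. CDH11, among the lower genes of both comparisons, had passed the limit on low values through gCtl alone. The g1 and g2 comparisons share the 5 gCtl libraries. Against one another, g2 and g1 differed by 0.66 (SE 0.19, edgeR adjusted p = 0.0558) for CTNND1, by 0.62 (SE 0.22, adjusted p = 0.113) for CDH17 and by -0.66 (SE 0.25, adjusted p = 0.136) for CDH3. None of the 6 was called there at an adjusted p of at most 0.05, where 4.98% of all genes were. At an unadjusted p under 0.05 those 3 genes passed, DESeq2 called CTNND1 (adjusted p = 0.0139), and so did the fit on transcripts near the main end (1.31, edgeR adjusted p = 0.00790).

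CTNNA1, the alpha-catenin of epithelia, showed the smallest difference of the 6. It stood at 186, 148, 149, 150 and 152 CPM in gCtl, at 158, 130 and 156 in g1 and at 196 and 158 in g2. Both guides together differed from gCtl by 0.02 on the log2 scale (95% interval -0.26 to 0.31, edgeR adjusted p = 0.918), an interval that runs from 0.835-fold to 1.24-fold. CTNNA1-020, the retained-intron transcript shown above, took 48.6% of all CTNNA1 counts, and CTNNA1-001 took 11.5%. CTNNA1-040, a 484-base transcript ending 872 bases away, held 0, 0, 0, 0 and 17 counts in gCtl, 44, 41 and 61 in g1, and 46 and 219 in g2. All 5 libraries with a guide had more of it than any gCtl library, in counts not scaled for depth. CTNNA1-040 was 1 of 44 CTNNA1 transcripts and held 4.79% of the gene's counts, so it is given as a description only. The counts of CTNNA1-020 and CTNNA1-001 overlapped between these groups. How many transcripts lacked overlap was not computed. The share of CTNNA1 counts away from the main end was 47.6% to 64.5% in gCtl and 55.7% to 75.0% in the others (exact permutation p = 0.04762, adjusted 0.0595). Without those counts the difference for both guides together was -0.28 and was not called (edgeR adjusted p = 0.349).

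The neuronal forms were scarce. CTNNA2 held 3, 5, 2, 2 and 6 counts in gCtl, 7.1, 6 and 8.9 in g1, and 7 and 16.5 in g2, or 0.357 to 1.06 CPM and 1.08 to 2.40 CPM. On TMM-scaled CPM the lowest library with a guide was just above the highest of gCtl, while on RPM (1.02 against 1.06) and TPM (0.307 against 0.310) the groups overlapped. Relative to library totals the level was 1.90-fold higher with a guide (46 against 18 counts, exact 95% interval 1.08 to 3.49, counting error only). In the edgeR fit that took in every biotype and any gene reaching 10 summed counts, the log2 difference was 0.95 (SE 0.52, adjusted p = 0.257) and was not called. CTNND2 was at 0 in all gCtl libraries, which allows up to 3 counts or 0.124 RPM over the group, and it held 2 counts over the libraries labelled g1 and g2, so no fold is given.

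Compared per length, as transcripts per 1000000 (TPM), the gCtl levels ran from CTNNA1 (310 ± 24.8, SD, n = 5) over CTNND1 (64.3 ± 3.87), CDH1 (53.8 ± 12.7), CDH17 (39.3 ± 3.89), CDH3 (23.3 ± 2.23), CDH11 (1.18 ± 0.647) and CTNNA2 (0.215 ± 0.0845) to CTNND2 at 0. CTNND1 and CDH1 overlapped, as did CDH1 and CDH17, and other neighbours among the first 7 did not. Reads from 3′ ends do not grow in number with transcript length, so the TPM order is not a plain order of mRNA levels. In RPM the gCtl means were 162 for CTNNA1, 145 for CDH1, 132 for CTNND1, 101 for CDH17 and 86.2 for CDH3. The first place of CTNNA1 depends on counts away from its main end. Near the main ends alone it held 54.1 to 101 RPM in gCtl. In every gCtl library that was below CDH1 (71.03 to 154 RPM) and CTNND1 (75.2 to 147 RPM). The TPM of CTNNA1 rests on the 416-base transcript for 48.6% of its counts, and a short transcript raises TPM by construction. In the libraries labelled g1 and g2 the TPM order was CTNNA1 (328 ± 25.4, n = 5), CTNND1 (102 ± 18.2), CDH17 (66.7 ± 14.2), CDH1 (52.5 ± 15.0), CDH3 (6.64 ± 2.67), CTNNA2 (0.423 ± 0.148), CTNND2 (0.0470 ± 0.0675) and CDH11 (0.0356 ± 0.0262). CDH17 stood before CDH1 there, with overlap, and CTNND2 and CDH11 overlapped as well. On log2(TPM + 1) the groups differed by 0.73 for CDH17 and 0.65 for CTNND1, without overlap, against 0.25 and 0.39 on log2(RPM + 1). On TMM-scaled CPM both genes overlapped between these groups. The share of genes without overlap was 15.4% on that scale and was not computed on TPM. Counts on short transcripts, such as CDH17-005 (565 bases) and CTNND1-036 (572 bases), weigh more in these TPM differences. For CDH1 the difference was -0.06 on log2(TPM + 1) and -0.42 on log2(RPM + 1).

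As a share of the summed RPM of the 4 cadherins, CDH3 went from 24.6%, 29.7%, 24.4%, 26.4% and 23.6% in gCtl to 11.4%, 15.5% and 8.90% in g1 and 7.10% and 6.01% in g2. CDH17 took 32.4%, 30.8%, 29.7%, 31.1% and 25.2% in gCtl, 37.8%, 36.4% and 50.1% in g1, and 56.2% and 57.6% in g2. Neither share overlapped between the libraries with and without a guide. Mean shares were 25.7% ± 2.46 and 9.78% ± 3.79 for CDH3, 29.8% ± 2.78 and 47.6% ± 10 for CDH17, and 1.28% ± 0.537 and 0.0665% ± 0.0472 for CDH11 (SD, n = 5 each; exact two-sided permutation p = 0.007937 for each, 0.0106 after adjustment over the 4 shares). The share of CDH1 was 43.2% ± 4.92 and 42.54% ± 6.58 (exact p = 0.873). The shares sum to 100% and are not independent, and the summed level itself was 336 ± 34.3 RPM in gCtl and 256 ± 37.3 in the others (exact p = 0.02381). In TPM that sum was 118 ± 12.1 and 126 ± 10.2 (exact p = 0.2778).

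Genes whose log2 CPM ran most like each member's over the 10 libraries are given as a description, since all 10 share the group difference. CDH3 ran with UCHL1 (Pearson r = 0.994), ACTL8 (0.993) and TCF4 (0.988), and CDH11 with ANK3 (0.979), CLUH (0.979) and SLC2A4RG (0.9749). CDH1 ran with LAMP2 (0.947), CEBPD (0.925) and PXYLP1 (0.924), and CDH17 with JMJD1C (0.951) and PERP (0.937). CTNNA1 ran with ZDHHC5 (0.954), TPD52 (0.927) and UHRF2 (0.916), and CTNND1 with C6orf62 (0.966), ZC2HC1A (0.966) and KHDRBS3 (0.960).

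Among the other catenins, none rose with both guides together and 1 of 4 tested (6 listed) fell, where 11.0% of all genes did. That was CTNNB1, beta-catenin, the partner that joins the cadherin tail to alpha-catenin, at 25.5 ± 5.43 CPM in gCtl and 11.9 ± 3.02 in the libraries labelled g1 and g2 (SD, n = 5 each), a fall by 1.10 on the log2 scale (SE 0.21, edgeR adjusted p = 0.00219). JUP, plakoglobin, which can take the place of beta-catenin on the tail, differed by -0.62 (adjusted p = 0.102) with both guides, and it fell in g1 by 1.05 (adjusted p = 0.00798). The g2 difference of JUP was -0.14 (edgeR adjusted p = 0.734).

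Of 18 other classical and related cadherins 8 were tested, 2 rose and none fell, with a median log2 fold change of 0.56 beside 0.02 for all genes, of which 8.14% were called higher. This median includes CDH15 and CDH18, which were low in gCtl beside the limit of 3 RPM for testing. CDH18 had means of 1.64 ± 0.813 CPM in gCtl and 2.82 ± 1.275 in the others (SD, n = 5 each) and was not called. The median may therefore rest in part on that limit. CDH15, the cadherin of muscle precursor cells, rose from 1.59 ± 0.823 to 4.58 ± 0.415 CPM, a log2 difference of 1.497 (SE 0.37, edgeR adjusted p = 0.00973), a call lost in 2 of 20 alternatives. One of these counted only transcripts near the main end, where CDH15 had 0 counts in every library and the log2 difference was 0. The main end is that of the protein-coding transcript with the most counts among those with a known position. The CDH15 counts therefore lay on other transcripts of the gene, and the rise was not seen on those protein-coding transcripts. The limit of 3 RPM for testing lay between the group means of CDH15. It passed through the libraries with a guide, so a call could hardly be other than higher. CDH4, R-cadherin, went from 5.76 ± 2.32 to 11.5 ± 4.72 CPM with overlap, and its call (1.004, adjusted p = 0.0360) was lost in 11 of 20 alternatives. CDH2, N-cadherin, held 4 counts over gCtl and 0 over the others.

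In other branches of the cadherin superfamily 15 of 24 listed genes were tested, of which 1 fell and 3 rose. Of all genes 11.0% were called lower and 8.14% higher. CLSTN2, a calsyntenin, fell by 2.46 on the log2 scale (SE 0.43, edgeR adjusted p = 0.00125), from 24.7 ± 6.84 to 4.62 ± 3.99 CPM. The protocadherin PCDH7 rose by 1.65 with both guides (SE 0.34, adjusted p = 0.00321) and by 2.06 in g1, while its 0.70 in g2 was not called (adjusted p = 0.0944) and g2 was lower than g1 (-1.36, edgeR adjusted p = 0.0257). The calsyntenin CLSTN3 rose by 1.11 (adjusted p = 0.0293) and the large cadherin FAT1 by 0.62 (adjusted p = 0.0112), and each of these calls was lost in 7 of 20 alternatives. With single guides both were called in g2 and not in g1. The CLSTN3 difference turned to -1.04 (adjusted p = 0.422) on transcripts near the main end.

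Of the nectins and junctional actin linkers 19 were tested, of which 4 fell and 4 rose, where 11.0% and 8.14% of all genes did. The list was chosen with results of these data known, so these counts are a description. NECTIN1 (PVRL1 in the tables), a nectin that joins cells beside cadherins, fell by 2.13 on the log2 scale (SE 0.29, edgeR adjusted p = 0.000217), from 23.4 ± 6.58 to 5.40 ± 2.44 CPM. VASP, which elongates actin filaments, rose by 1.15 (SE 0.21, adjusted p = 0.00161). ZYX, zyxin, fell by 1.14 (adjusted p = 0.0394) and KIFC3, a minus-end motor found at junctions, by 1.04 (adjusted p = 0.0297), and these calls were lost in 8 and 7 of 20 alternatives.

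Of 11 tested genes of cadherin processing and turnover (12 listed) 1 fell, and of 8 p120-catenin partners 1 fell, beside 11.0% of all genes. They were FURIN, a protease that removes cadherin prodomains, by 1.32 (SE 0.38, edgeR adjusted p = 0.0216), and RHOA, the GTPase that p120-catenin restrains, by 0.89 (SE 0.21, adjusted p = 0.00843). Among 7 repressors of CDH1 transcription 2 were tested. TCF3 fell by 0.68 (SE 0.14, adjusted p = 0.00320). ZEB2 differed by 0.65 with both guides (edgeR adjusted p = 0.137) and rose in g2 by 1.13 (adjusted p = 0.0162). Of the untested repressors SNAI1 held 11 counts over gCtl and 1 over the others, ZEB1 6.5 and 29.3, SNAI2 2 and 4, TWIST1 0 and 1, and TWIST2 0 in both. Among 12 epithelial and intestinal activators 9 were tested and 2 rose, where 8.14% of all genes did. KLF5 rose by 1.14 (SE 0.14, edgeR adjusted p = 0.000125), from 136 ± 13.6 to 299 ± 47.6 CPM. KLF4 rose by 2.01 (SE 0.60, edgeR adjusted p = 0.0243), and its call was lost in 6 of 20 alternatives. With single guides CDH4, FURIN and KLF4 were called in g2 and not in g1, ZYX, RHOA and TCF3 in g1 and not in g2, and KIFC3 in neither, and g2 against g1 was called for none of these 7. Like CDH15, CLSTN3 and KLF4 passed the limit on low values through libraries with a guide, and FURIN passed it through gCtl. The direction of these calls was therefore largely set by the limit. The lists were chosen with results of these data known, and no test of a list was made.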

How the data were processed

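Caco-2 QuantSeq 3′ mRNA libraries were quantified by the authors with Kallisto (version written as 42.5 in the submitters' processing notes) on GENCODE 24 transcripts. The deposited values are estimated counts per transcript, neither normalized nor pooled. They were summed per gene; RPM used library totals of 3838803 to 8730468, and TPM was computed here from transcript lengths. Protein-coding genes with RPM above 3 in at least 20% of libraries were tested.

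Rounded sums were fitted with edgeR 4.0.16 (R 4.3.3, TMM), g1 and g2 jointly against gCtl and in a fit with 3 groups, at the thresholds the study used. Shares were compared by two-sided exact permutation tests (scipy 1.17.1). The fitting code was run on simulated gene counts with known changes and no shift between transcript ends. That run checked the code and not the calls given here. Alternatives used DESeq2 1.42.0, limma 3.58.1, other scalings and filters, each library left out and, chosen after seeing the data, only transcripts near a gene's main end. Positions come from GENCODE 29 on GRCh38, the same build.

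The text names the members, the 3 genes most like each tested member (1 of them is not reported here), of each list the called genes with the largest change (at most 4), and markers; CDH2, JUP and the other CDH1 repressors were added after their values were seen. Members and lists were chosen with earlier results of these data known.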

Additional observations from a re-analysis of the deposited data

Results flagged for a closer look

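In gCtl, CTNNA1 in replicate 1 (186 CPM) stood apart from the other 4 libraries (148 to 152 CPM): its gap to the next library was 0.907 of the group's whole range, above the limit of Dixon's test for 5 values. The 8 genes were each examined this way in gCtl, and chance passes about 1 in 20 such groups.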

How the results depend on the processing

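Of 498 log2 fold changes of the members under the alternatives, 470 kept their direction and side of the threshold, 6 lost a call, 11 gained one and 11 changed sign. These counts include fits that left 1 g2 library. CDH3 and CDH11 kept their lower calls against gCtl in all alternatives. In g2 against gCtl 4 members were called and 2 with the test against a 1.5-fold change. In g2 against g1 no member was called, and 1 was with DESeq2's size factors in edgeR, with DESeq2 and with only transcripts near the main end, and 0 to 1 when a library was left out (1 without gCtl replicate 5, g2 replicate 1 or g2 replicate 2). The CDH1 share changed by -0.61 percentage points, and by -2.66 to 1.23 when a library was left out.

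The sign changes of members concerned uncalled values. For CTNNA1 with both guides they were -0.073 with library totals, -0.0742 and -0.0746 in limma (pseudocounts 1 and 0.1), -0.024 over all biotypes and -0.28 near the main end, with -0.072 (without g2 replicate 1) to 0.090 when a library was left out, and 0.0821 on log2(TPM + 1) against -0.0742 on log2(RPM + 1). Near the main end CTNNA1 in g2 gave -0.14, CTNND1 in g1 -0.29, CDH1 in g2 against g1 0.53. CLSTN3, called higher, turned to -1.04 there. When a library was left out CDH17 in g1 gave -0.0780 (without g1 replicate 3) to 0.23, and CDH1 in g2 against g1 gave -0.50 to 0.10 (without g2 replicate 2). The causes were not tested. CTNND1 was also called in g2 against g1 without gCtl replicate 5 (0.68). With 1 g2 library left, the g2 against g1 difference was -1.11 for CDH3 (without g2 replicate 1) and 0.88 for CDH17 (without g2 replicate 2).

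Library totals in place of TMM moved the median of all genes in g2 to -0.16 and the share of lower calls from 54.9% to 73.3% (57.5% to 69.4% for both guides, 68.6% to 83.4% in g2 against g1). The test against 1.5-fold called 488 genes in place of 2232 with both guides, 506 in place of 1950 in g1, 802 in place of 2757 in g2 and 92 in place of 580 in g2 against g1, where 159 were called with only those groups in the fit 371 near the main end, 266 without g1 replicate 1 and 312 without g1 replicate 2. Without g1 replicate 3, 1252 genes were called in g1. Of 22 called list genes 6 kept their call in all 20 alternatives. No paired analysis was possible because replicate numbers only name the libraries.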
